A study of Mus musculus with 19 samples.

Results

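The axon guidance ligands and receptors are the cell surface and secreted proteins through which growing axons, and later synapses, read their surroundings. They were taken from the expression tables by gene symbol alone, as the class 3 to 7 semaphorins, plexins, neuropilins, Eph receptors, ephrins, Slits, Robos, netrins, netrin-Gs, Unc5 receptors and Dcc. The symbols gave 71 genes of the 14459 in the tables, 37 ligands and 34 receptors, spread over 19 chromosomes.

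Hippocampal slices of male Fmr1 knockout (KO) mice were compared with slices of wild-type (WT) littermates at 28 to 35 days after birth, on a C57BL/6 background. The KO mice lack FMRP, an RNA-binding protein of neurons and other cells. Each replicate pooled 8 to 10 slices of 400 µm from 6 to 8 mice of 1 genotype, kept at 30 °C for 3 to 4 h before cycloheximide at 100 µg/ml stopped the ribosomes. One portion of each lysate gave cytoplasmic RNA and another gave ribosome footprints, the mRNA stretches that ribosomes protect from nuclease. Both assays were analysed in 3 KO and 4 WT libraries, and these are the n of every mean, SD, fold change and test given here. Because replicates are pools of mice, the p-values measure the spread between pools. That spread is narrow in 1 respect: the contrast of replicates 1 and 2 against 3 and 4 held 2.0% of the variance within genotypes in RNA and 3.74% in footprints, where an even share would be 20%. The deposited values thus look as if a difference between these sets of libraries had been removed, a step not given in the sources used here, and the p-values may be too small.

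Each guidance family has its own pairing of ligand and receptor. Slits bind Robos and repel axons, secreted class 3 semaphorins act through neuropilins and plexin-A receptors, ephrins held on one cell bind Eph receptors on the next, and netrins attract through Dcc or repel together with Unc5 receptors. In the hippocampus these families are known to lay out the mossy fibre and perforant paths during development, and in the mature tissue several of them act at dendritic spines.

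Levels are given as TPM, a transcript abundance corrected for gene length and library size. The RNA libraries held 4.97 to 9.96 M estimated counts each, the footprint libraries 15.6 to 22.7 M, and the lowest value in a library was 0.880 to 1.00 TPM, so that genes near 1 TPM sit on a floor. Fmr1 followed the labels, with 4.59 to 5.03 TPM in KO footprints against 42.7 to 46.3 TPM in WT, and 3.90 to 5.31 against 16 to 19.3 TPM in RNA. The labels name the source as hippocampal and cortical slices, while their protocol describes hippocampal slices from which CA3 was cut away to enrich CA1. All 5 of 5 CA3 markers were present, and their summed footprints were lower in KO (603 to 642 TPM) than in WT (716 to 768 TPM). By edgeR 3 of these 5 were lower in footprints and 3 in RNA. Summed microglial markers were 331 to 354 TPM in KO footprints against 403 to 417 TPM in WT, with 7 of 7 lower by edgeR, and fibroblast and meningeal markers were 111 to 119 against 142 to 165 TPM, with 4 of 5 lower. Of the 7 oligodendrocyte precursor markers, 3 were lower in footprints and 2 in RNA. Their summed RNA was 294 to 329 TPM in KO and 340 to 385 TPM in WT. By the same test, 10.4% of all genes were lower and 8.15% higher in footprints, and 2.77% were lower in RNA. Summed CA1 markers, 5 of 5 present, were 252 to 267 TPM in KO footprints against 275 to 281 TPM in WT, and 468 to 519 against 539 to 597 TPM in RNA. By edgeR only 1 of these 5 was lower in each assay. Their median log2 fold change was 0.015 in footprints and -0.178 in RNA. Thalamic markers were higher, at 229 to 230 against 209 to 226 TPM with 3 of 6 higher, and the haemoglobin genes Hba-a2 and Hbb-bs, as blood markers, were lower, at 3.25 to 4.72 against 10.5 to 11.9 TPM. Pyramidal neuron markers overlapped, at 11720 to 12159 TPM in KO and 12086 to 12153 TPM in WT. Among the other sets, 2 of 7 interneuron, 2 of 6 oligodendrocyte, 1 of 7 astrocyte and 1 of 5 dentate markers were lower in footprints. So were 1 of 6 endothelial and 1 of 4 mural markers. For oligodendrocytes, astrocytes and the dentate, 1 marker each was higher. Of 2 choroid plexus markers present, 1 was lower and 1 higher. Their sums were 9.13 to 17.3 TPM in KO and 7.38 to 8.85 TPM in WT. The part of these shifts in the values below was not tested, and in bulk tissue fewer cells of a type cannot be told apart from less RNA per cell.

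The guidance genes carried fewer footprints in KO slices, by small amounts. Of the 71 genes, 33 fell and none rose in footprints (edgeR quasi-likelihood test, adjusted p under 0.05 over all genes), where 10.4% of all genes tested fell and 8.15% rose. At an unadjusted p under 0.05, 42 were lower and 1 was higher, with no share of all genes counted at that threshold. DESeq2 and limma also called none higher. The median log2 fold change of KO over WT was -0.13 for the guidance genes, with a range of -0.64 to 0.18, against -0.0001 for all genes. In 43 of the 71, every KO footprint library lay below every WT library, which holds for 15.6% of all genes. The opposite order was seen for 1 guidance gene (15.1% of all genes). This was Robo3, whose levels of 1.96 to 2.52 TPM were close to the floor. Receptors fell in 18 of 34 cases and ligands in 15 of 37, a difference that was not tested.

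Fewer of the genes passed in RNA, where the libraries held 4.97 to 9.96 M estimated counts, against 15.6 to 22.7 M in footprints. The part of this depth in the lower count of calls was not tested. Of the 70 with enough reads, 14 fell and none rose by edgeR, where 2.77% of all genes fell and 2.11% rose. The ephrin gene Efna4 was too low to be tested in RNA. At an unadjusted p under 0.05, 28 were lower and 3 were higher, again with no share of all genes counted. DESeq2 and limma called none higher. The median was -0.11 against -0.005 for all genes, and the KO libraries all lay under the WT libraries in 26 of 71 genes (10% of all genes). The RNA count rests on single libraries: it was 5 without KO RNA library 1, 1 without KO library 2, 16 without KO library 3, 3 without WT library 1, 9 without WT library 2, 7 without WT library 3 and 4 without WT library 4. The share of all genes called lower moved too, from 0.876% without KO library 2 to 3.73% without KO library 3. Limma on log2(TPM + 1) and the fit with a replicate block each ended 10 of the 14 RNA calls, among them Nrp1, Ntng2, Plxna1, Plxna3, Sema3e and Slit3. The fit with the set of libraries as a covariate ended 8. Slit1, Ntn5 and Unc5a passed in all of the settings that kept every library. In both assays 10 genes were called lower (1.41% of all genes), in footprints alone 23, and in RNA alone 4. Shares of all genes for 1 assay alone were not counted. Regardless of the other assay, 10.4% of all genes fell in footprints and 2.77% in RNA. The 10 were Slit1, Slit2, Slit3, Sema3e, Sema4a, Ntn5, Nrp1, Plxna1, Plxna3 and Plxnb2.

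**Figure D1:**
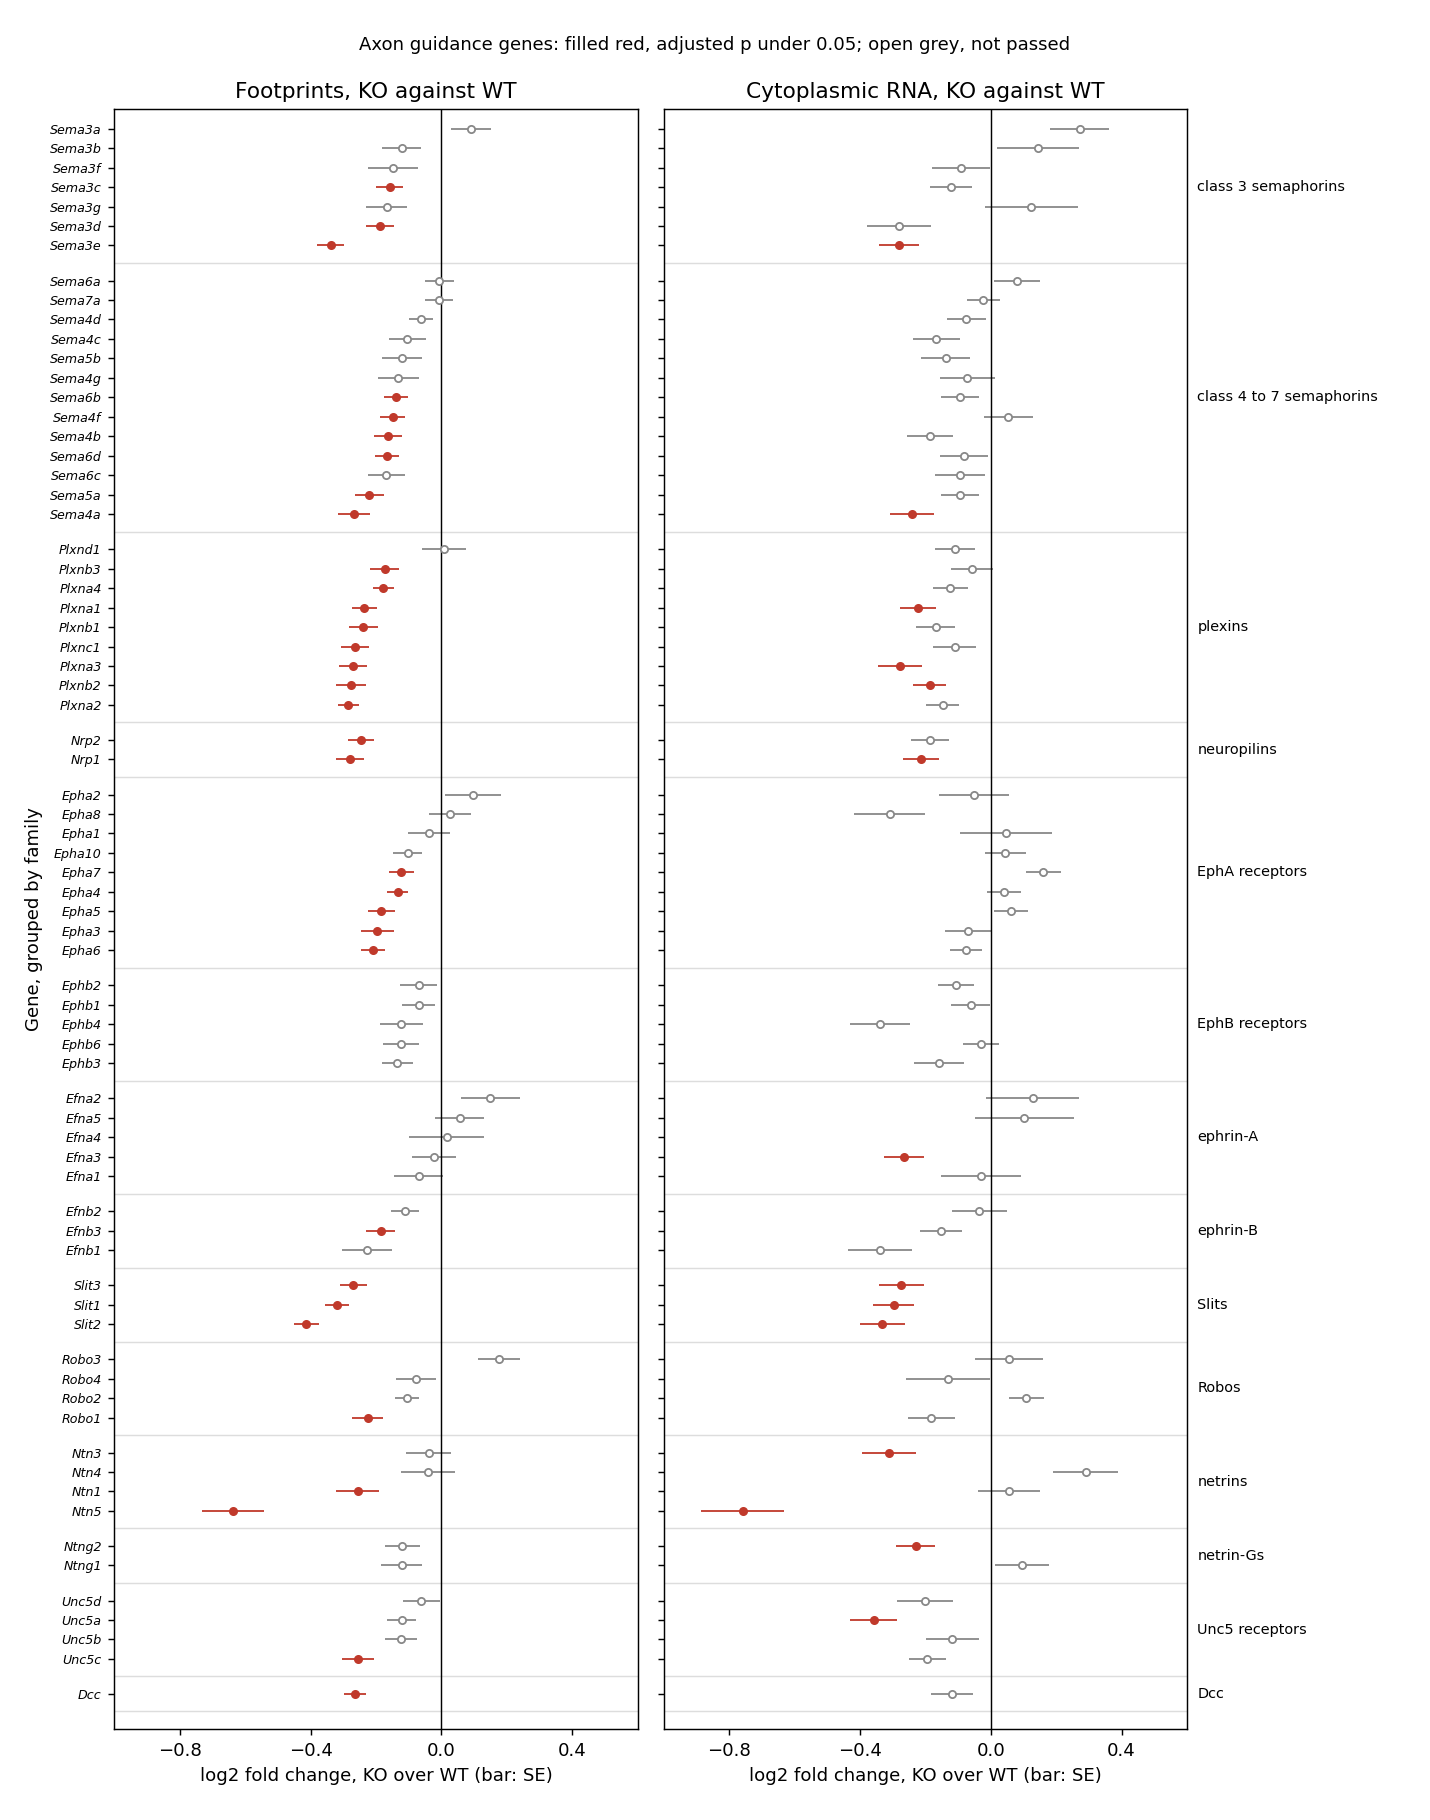
Log2 fold change of KO over WT with its standard error for each guidance gene (rows, grouped by family), in footprints (left) and cytoplasmic RNA (right). Filled red points passed an adjusted p of 0.05 in edgeR; the Slits, plexins and neuropilins lie to the left of 0 in footprints, except Plxnd1, and the ephrin-A genes lie around 0.

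Among the 10 genes that fell in both assays, 3 have a tabulated stretch of 250 bases upstream of a start that lies outside every annotated gene, and they were chosen for that alone. They are printed 5′ to 3′ on the gene's own strand from RefSeq on GRCm38.p6, the same assembly as the mm10 of the labels. Capitals mark GC boxes, the letters GGGCGG or their reverse complement, which may adjoin or overlap each other. The windows were also searched on both strands for the TATA box (letters TATAAA), the CCAAT box, the E-box (letters CACGTG) and the cyclic AMP response element (letters TGACGTCA), and these 3 windows hold none of them. Other windows differ: that of Slit2 holds a TATA box, and that of Ntn5 holds no GC box and is 52.8% G or C.
Slit3 (plus strand, chr11:35121206-35121455): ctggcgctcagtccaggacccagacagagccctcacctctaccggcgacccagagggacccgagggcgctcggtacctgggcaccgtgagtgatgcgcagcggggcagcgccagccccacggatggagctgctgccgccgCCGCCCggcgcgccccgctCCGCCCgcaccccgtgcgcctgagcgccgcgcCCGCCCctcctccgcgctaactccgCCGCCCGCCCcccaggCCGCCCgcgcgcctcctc
Sema3e (plus strand, chr5:14025026-14025275): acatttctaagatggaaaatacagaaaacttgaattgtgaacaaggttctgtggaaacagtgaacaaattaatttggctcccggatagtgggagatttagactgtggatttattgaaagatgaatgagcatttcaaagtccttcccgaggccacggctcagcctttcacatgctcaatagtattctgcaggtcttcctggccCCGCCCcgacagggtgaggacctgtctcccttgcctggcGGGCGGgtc
Sema4a (minus strand, chr3:88461183-88461432): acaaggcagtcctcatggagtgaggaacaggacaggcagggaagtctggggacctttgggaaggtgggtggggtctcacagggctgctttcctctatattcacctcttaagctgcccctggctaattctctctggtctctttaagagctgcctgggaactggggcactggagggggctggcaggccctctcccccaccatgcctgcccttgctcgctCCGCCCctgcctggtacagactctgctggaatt
The Slit3 window holds 6 GC boxes and is 78.8% G or C, the Sema3e window holds 2 and is 48.0% G or C, and the Sema4a window holds 1 and is 59.6% G or C. Upstream windows were tabulated for 61 of the 71 guidance genes, 77 in all. A GC box lay in 70.1% of these against 32.7% of the 32851 windows of all genes, which include non-coding genes, and TATAAA lay in 2.60% against 12.4%. CCAAT lay in 27.3% of the guidance windows against 33.8% of all, CACGTG in 5.19% against 6.02% and TGACGTCA in 1.30% against 1.55%. The median G or C content was 64.4% in the guidance windows and 52.4% in all. A match is a string of letters and not a shown site, and base composition differs between the sets.

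The 3 Slits, the secreted repellents of Robo-bearing axons, fell together in both assays. Slit2 (chr5:47981291-48307735) was measured at 13.8, 14.2 and 13.7 TPM in KO footprints and at 18.6, 17.8, 19.2 and 18 TPM in WT. Its RNA was 12.9, 12.1 and 12.1 TPM in KO and 16.9, 14.3, 16.1 and 14.7 TPM in WT. The groups did not overlap in either assay. Footprints fell by 24.9% (log2 fold change -0.41 ± 0.04 SE, edgeR adjusted p = 0.000178) and RNA changed by a log2 of -0.33 ± 0.07 (adjusted p = 0.0159). The RNA call was lost without KO RNA library 2 (adjusted p = 0.0526) or WT RNA library 1 (0.0508), and with limma (0.0631).

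Slit1 (chr19:41597824-41747275), the Slit with the highest level, gave 82.9, 85.8 and 84.2 TPM in KO footprints and 104, 106, 108 and 101 TPM in WT. In RNA it gave 117, 110 and 128 TPM in KO and 153, 143, 150 and 135 TPM in WT. All KO values were below all WT values in both assays, with log2 fold changes of -0.32 ± 0.04 for footprints (edgeR adjusted p = 0.000574) and -0.30 ± 0.06 for RNA (adjusted p = 0.0170). Without KO RNA library 1 or 2 the RNA change missed the threshold, with adjusted p of 0.0563 and 0.0726. Slit3 (chr11:35121456-35708507), whose upstream window is printed above, gave 34.6, 35.9 and 36.6 TPM in KO footprints and 43.6, 43.7, 43.4 and 40.6 TPM in WT. Its RNA was 40.5, 34.1 and 41.7 TPM in KO and 50.4, 45.7, 44.4 and 47.2 TPM in WT, again with no overlap. Footprints changed by log2 -0.27 ± 0.04 (adjusted p = 0.00188) and RNA by -0.27 ± 0.07 (adjusted p = 0.0311), and leaving out KO library 1 or 2, or WT library 1 or 4, ended the RNA call (adjusted p 0.0639 to 0.129). Footprints and RNA thus moved by nearly equal amounts, and the difference between them (the TE change, for translational efficiency) was -0.09 ± 0.08 for Slit2, -0.03 ± 0.07 for Slit1 and -0.01 ± 0.08 for Slit3.

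**Figure D2:**
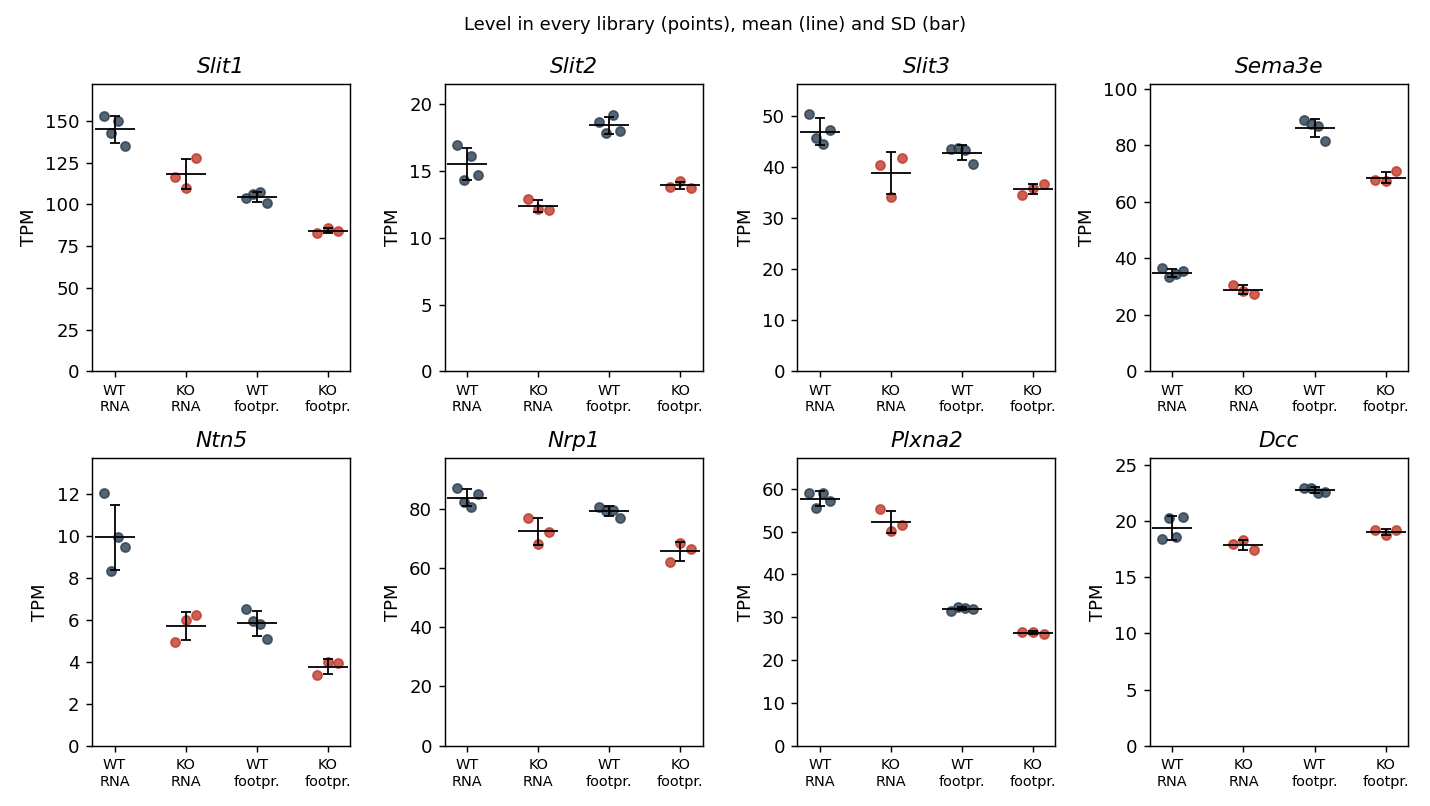
TPM in every library for 8 guidance genes (points: libraries, line: mean, bar: SD; dark points 4 WT, red points 3 KO, RNA at left and footprints at right of each panel). In footprints every KO point lies below every WT point in all 8 panels, for example 82.9 to 85.8 against 101 to 108 TPM for Slit1.

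Of the 7 class 3 semaphorins, the secreted ligands of neuropilins and plexins, Sema3c, Sema3d and Sema3e fell in footprints and Sema3e alone in RNA, with family medians of -0.16 and -0.09. Sema3e (chr5:14025276-14256689), which binds plexin-D1 without a neuropilin, was the most abundant, at 67.5, 67.4 and 70.8 TPM in KO footprints and 88.8, 87.6, 86.8 and 81.5 TPM in WT. Its RNA was 30.6, 28.4 and 27.5 TPM in KO and 36.6, 33.3, 34.3 and 35.3 TPM in WT. KO and WT were apart in both assays, with a footprint change of -0.34 ± 0.04 (edgeR adjusted p = 0.000706) and an RNA change of -0.28 ± 0.06 (adjusted p = 0.0185). Leaving out KO library 2, or else WT library 1 or 4, ended its RNA call, with adjusted p from 0.0572 to 0.0617.

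Sema3d footprints were 13.2, 12.8 and 13.5 TPM in KO and 14.6, 15.3, 14.9 and 14.8 TPM in WT, without overlap (-0.19 ± 0.04, edgeR adjusted p = 0.00944). DESeq2, another count test, did not call it (adjusted p = 0.0514), nor did the fit with the replicate block (0.0631). Sema3c, at 23.2 to 23.8 TPM in KO, lost its call with the block (0.0561) or without KO footprint library 1 (0.0610) or 2 (0.0514). Sema3a, the classical growth cone collapsing factor, ran the other way without passing, with a footprint difference of 0.09 ± 0.06 (adjusted p = 0.376) and an RNA difference of 0.27 ± 0.09 (adjusted p = 0.178). Its RNA was 7.71, 7.46 and 6.71 TPM in KO and 5.89, 6.02, 5.77 and 6.12 TPM in WT, so that every KO library was above every WT library. That order was seen in RNA for 4 guidance genes (9.03% of all genes), the other three being Epha7, Ntn4 and Robo2.

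The 13 class 4 to 7 semaphorins are mostly anchored in the membrane. In footprints 6 fell (Sema4a, Sema4b, Sema4f, Sema5a, Sema6b and Sema6d), with a family median of -0.14 and a range of -0.27 to -0.01, and in RNA Sema4a fell. The replicate block ended the calls of Sema4b (adjusted p = 0.106), Sema4f (0.0927), Sema6b (0.0622) and Sema6d (0.0671), and DESeq2 those of Sema4b (0.0916) and Sema4f (0.0719). The Sema4b call was also lost with limma, with the library set as a covariate, and without KO footprint library 1 or 2 or WT library 3 or 4 (0.0503 to 0.0673). The call was lost for Sema4f without KO library 2 or 3 (0.0535 and 0.0857), and for Sema6b without KO library 1 or 3 or WT library 2 (0.0564 to 0.0876). Sema4a (chr3:88435959-88461182) was measured at 19.8, 20.5 and 18.1 TPM in KO footprints and at 21.9, 23.8, 24.1 and 23.6 TPM in WT, with no overlap (-0.27 ± 0.05, edgeR adjusted p = 0.00426). Its RNA, 23.4, 22.4 and 23.5 TPM in KO and 28.4, 25.7, 25.7 and 29.6 TPM in WT, was only just past the threshold (-0.24 ± 0.07, adjusted p = 0.0499). The RNA call was lost without any 1 of the 7 RNA libraries (adjusted p 0.0541 to 0.186), and in 14 of 16 settings in all. Sema7a, held by a lipid anchor and the most abundant of these genes, was at 91.9, 94.0 and 86.1 TPM in KO footprints and 85.1, 93.1, 93.5 and 91.1 TPM in WT. Here the groups overlapped, and the difference was -0.01 ± 0.04 (adjusted p = 0.942).

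The secreted netrins were low in these slices, with WT footprint means of 4.20 to 5.82 TPM. Ntn5 (chr7:45684022-45694556) showed the largest change of all guidance genes. Its footprints were 3.38, 4.01 and 3.93 TPM in KO and 6.50, 5.92, 5.82 and 5.06 TPM in WT, and its RNA was 4.93, 5.98 and 6.21 TPM in KO and 12.0, 8.32, 9.93 and 9.48 TPM in WT. Neither assay overlapped. Footprints fell by 35.7% (log2 -0.64 ± 0.10, edgeR adjusted p = 0.00173) and RNA changed by log2 -0.76 ± 0.13 (adjusted p = 0.00665). It was the 1 RNA call of 14 that was kept under every alternative, with adjusted p of at most 0.0266. Ntn5 shares 10381 bases of its span with the gene Sec1, and whether the counting used strand is not given in the sources used here. Sec1 itself was measured at 1.06 to 1.29 TPM in footprints and 1.30 to 2.13 TPM in RNA, close to the floor.

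Ntn1, the founding netrin and the main ligand of Dcc, fell in footprints, with a log2 fold change of -0.26 ± 0.07 (edgeR adjusted p = 0.0449), with 3.80 to 4.00 TPM in KO and 4.38 to 4.94 TPM in WT. This call was lost in 9 of 15 settings, among them DESeq2 (adjusted p = 0.206), library totals (0.0545), the replicate block (0.0683) and the fit without any 1 KO library or WT library 1, 2 or 4 (0.0643 to 0.186). Ntn3 passed in RNA and not in footprints. Its RNA was 16.4, 19.5 and 19.2 TPM in KO and 23.8, 21.1, 23.2 and 23.7 TPM in WT, without overlap (-0.31 ± 0.08, adjusted p = 0.0404). Its footprints overlapped (-0.04 ± 0.07, adjusted p = 0.848). Leaving out KO RNA library 1 or 2 or WT RNA library 1, 3 or 4 ended the RNA call (adjusted p 0.0589 to 0.117), as did DESeq2 (0.141), limma (0.0607), the replicate block (0.138) and the library set as a covariate (0.080). Ntn3 overlaps Tbc1d24 by 1732 bases.

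The netrin-Gs are lipid-anchored relatives that bind synaptic partners of the Lrrc4 family and not Dcc. Ntng2 RNA was 92.1, 93.3 and 101 TPM in KO and 107, 114, 109 and 117 TPM in WT. The groups stood apart (-0.23 ± 0.06, edgeR adjusted p = 0.0392), although the call was lost without any 1 of 6 RNA libraries, all but KO library 3 (adjusted p 0.0573 to 0.125). Ntng2 footprints, 15.4 to 17.6 TPM in KO and 17.0 to 18.2 TPM in WT, did not pass (-0.12 ± 0.05, adjusted p = 0.150). Ntng1, with the higher footprint level, was at 21.9 to 24.3 TPM in KO and 23.1 to 26.9 TPM in WT and did not pass either (-0.12 ± 0.06, adjusted p = 0.223).

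Of the 8 ephrins, the ligands of the Eph receptors, 1 fell in footprints and 1 in RNA. The 5 ephrin-A genes had a footprint median of 0.02 and adjusted p of 0.455 or more. Efna3, the most abundant ephrin-A, stood apart in RNA, at 104, 109 and 107 TPM in KO and 135, 123, 129 and 128 TPM in WT (-0.27 ± 0.06, edgeR adjusted p = 0.0228). Its footprints overlapped, at 48.6, 55.4 and 55.3 TPM in KO and 50.7, 59.2, 53.5 and 51.2 TPM in WT (-0.02 ± 0.07, adjusted p = 0.896). The Efna3 RNA call ended when KO library 1 or 2, or else WT library 1, 3 or 4, was left out (adjusted p 0.0509 to 0.0755), and with DESeq2 (0.0616), the replicate block (0.0870) or the library set as a covariate (0.0521). Of the 3 transmembrane ephrin-B genes, Efnb3, a ligand and receptor in midline and synaptic signalling, fell in footprints. It gave 75.4, 78.2 and 70.9 TPM in KO and 80.5, 87.2, 86.4 and 84.6 TPM in WT, without overlap (-0.19 ± 0.04, adjusted p = 0.0127). Without KO footprint library 3 its adjusted p was 0.0545.

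The neuropilin and plexin-A receptors of the class 3 semaphorins fell together in footprints, while Plxnd1, the receptor of Sema3e described below, did not pass. All 6 neuropilin and plexin-A genes passed, with a median of -0.26, and Nrp1, Plxna1 and Plxna3 also fell in RNA, where the median was -0.20. Nrp1 (chr8:128358591-128505476), the semaphorin-binding co-receptor that also binds VEGF, was at 61.8, 68.2 and 66.5 TPM in KO footprints and 80.6, 79.1, 79.6 and 76.8 TPM in WT. Its RNA was 76.9, 67.9 and 72.0 TPM in KO and 86.9, 82.3, 80.5 and 84.8 TPM in WT. The groups did not overlap in either assay, with changes of -0.28 ± 0.04 (edgeR adjusted p = 0.00201) and -0.21 ± 0.05 (adjusted p = 0.0340). Nrp2, the partner of Sema3f, fell in footprints, with a log2 fold change of -0.25 ± 0.04 (adjusted p = 0.00238). The Nrp1 RNA call was lost without KO library 2 or any 1 of the WT libraries (adjusted p 0.0590 to 0.136).

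Plexins carry the signal into the cell through a GTPase-activating domain, and 8 of 9 fell in footprints (family median -0.24). Plxna2 (chr1:194619791-194816869) gave 26.5, 26.6 and 26.1 TPM in KO footprints and 31.5, 32.4, 32.2 and 31.9 TPM in WT, far apart for their spread (-0.29 ± 0.03, edgeR adjusted p = 0.000516). Its RNA, 55.2, 50.1 and 51.5 TPM in KO and 59.1, 55.5, 58.9 and 57.2 TPM in WT, was also without overlap but did not pass (-0.15 ± 0.05, adjusted p = 0.110). Plxna4, the most abundant plexin in footprints, was at 46.1, 46.2 and 45.0 TPM in KO and 50.4, 52.7, 51.5 and 51.3 TPM in WT (-0.18 ± 0.03, adjusted p = 0.00447). Plxna1 changed in footprints by -0.24 ± 0.04 (adjusted p = 0.00255), with an RNA change of -0.22 ± 0.06 (adjusted p = 0.0322), and Plxna3 by -0.27 ± 0.04 (adjusted p = 0.00203) and -0.28 ± 0.07 (adjusted p = 0.0273).

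Of the remaining plexins, plexin-B1 and plexin-B2 bind class 4 semaphorins, and plexin-C1 binds Sema7a. Plxnb2 changed by -0.28 ± 0.05 in footprints (edgeR adjusted p = 0.00253), while its RNA changed by -0.19 ± 0.05 (adjusted p = 0.0481), and Plxnc1 fell in footprints (10.4, 10.9 and 10.4 TPM in KO, 13.4, 12.1, 12.4 and 12.7 TPM in WT, -0.26 ± 0.04, adjusted p = 0.00266). Plxnb3 passed in footprints but lost its call in 5 of 16 settings, limma, the length trend removed, the replicate block, and without KO library 2 or 3 (0.0599 to 0.0828). The RNA calls of Plxna1, Plxna3 and Plxnb2 were each lost without 5 or 6 single RNA libraries. For Plxna1 these were KO libraries 1 and 2 and WT libraries 1, 3 and 4 (adjusted p 0.0620 to 0.138), for Plxna3 KO libraries 1 and 2 and WT libraries 1, 2 and 4 (0.0567 to 0.107), and for Plxnb2 all but KO library 3 (0.0975 to 0.155). The Plxnb2 RNA call was lost in 14 of 16 settings in all, with DESeq2 (0.0672) and limma (0.108) among them. Plxnd1, the receptor of Sema3e, was the exception among plexins, with overlapping footprints of 6.06, 5.78 and 4.97 TPM in KO and 5.29, 5.12, 5.68 and 6.08 TPM in WT (0.01 ± 0.07, adjusted p = 0.964). Its RNA differed by -0.11 ± 0.06 (adjusted p = 0.343).

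Among the 9 EphA receptor kinases, Epha3, Epha4, Epha5, Epha6 and Epha7 fell in footprints and no RNA change passed (lowest adjusted p 0.0971, for Epha7). The RNA family median was 0.04, against -0.12 in footprints. Epha4 (chr1:77367182-77515107), a receptor of both ephrin classes that acts at hippocampal spines, had the highest footprint level of all guidance genes. It gave 331, 330 and 329 TPM in KO and 355, 364, 360 and 361 TPM in WT, with no overlap and a spread of a few TPM (-0.13 ± 0.03, edgeR adjusted p = 0.0149, and 0.0679 with the replicate block). Epha4 RNA overlapped, at 236, 210 and 204 TPM in KO and 208, 200, 213 and 217 TPM in WT (0.04 ± 0.05, adjusted p = 0.738).

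Epha7 (chr4:28813066-28967503) was lower in KO footprints and higher in KO RNA. Its footprints were 141, 144 and 148 TPM in KO and 154, 159, 154 and 159 TPM in WT (-0.12 ± 0.04, edgeR adjusted p = 0.0382). Its RNA was 90.3, 85.2 and 82.2 TPM in KO and 77.9, 73.9, 74.2 and 80.3 TPM in WT (0.16 ± 0.05, adjusted p = 0.0971). Neither assay overlapped, and the 2 lay on opposite sides. With KO footprint library 1 or 2 left out, or WT library 1, 2 or 4, the footprint call was lost (adjusted p 0.0594 to 0.129), as it was with library totals (0.0526), the replicate block (0.125) and the library set as a covariate (0.0789). Epha5 footprints changed by -0.18 ± 0.04 (adjusted p = 0.00991) and its RNA by 0.06 ± 0.05 (adjusted p = 0.561). Epha6 footprints changed by -0.21 ± 0.04 (adjusted p = 0.00290) and those of Epha3 by -0.20 ± 0.05 (adjusted p = 0.0175). The Epha3 call was lost with DESeq2 (0.0604), the replicate block (0.0614), and without KO footprint library 1 (0.0804) or 3 (0.0550).

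The 5 EphB receptors, which bind ephrin-Bs and organise excitatory synapses, had footprint changes of -0.13 to -0.07 that did not pass (lowest adjusted p 0.0642, for Ephb3). Ephb6, a member without kinase activity, had the highest level, at 18.1, 18.8 and 16 TPM in KO and 17.7, 19.6, 20.0 and 19 TPM in WT. These groups overlapped (-0.12 ± 0.06, edgeR adjusted p = 0.158).

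Of the 4 Robo genes, 1 fell in footprints. This was Robo1, with 17.9 to 19.4 TPM in KO and 20.3 to 22.4 TPM in WT (-0.23 ± 0.05, edgeR adjusted p = 0.00743). All 3 Slit genes fell, a difference that was not tested. Robo4 footprints, with means of 1.24 TPM in KO and 1.30 TPM in WT, were close to the floor, as were those of Robo3. Robo2, the most abundant, gave 47.9, 47.5 and 47.8 TPM in KO footprints and 52.3, 52.5, 50.7 and 49.0 TPM in WT, apart but not past the threshold (-0.11 ± 0.04, adjusted p = 0.0641). In RNA Robo2 was at 40.0, 37.0 and 36.5 TPM in KO and 36.0, 34.9, 33.0 and 36.1 TPM in WT (0.11 ± 0.05, adjusted p = 0.274), with every KO library above every WT library.

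Dcc, the netrin receptor that mediates attraction, gave 19.2, 18.7 and 19.2 TPM in KO footprints and 23.0, 23.0, 22.5 and 22.6 TPM in WT. The gap between the groups exceeded the spread within either (-0.26 ± 0.03, edgeR adjusted p = 0.000853). Its RNA, 17.9, 18.3 and 17.4 TPM in KO and 18.4, 20.2, 18.6 and 20.3 TPM in WT, lay apart by a narrow margin and did not pass (-0.12 ± 0.06, adjusted p = 0.309). Of the 4 Unc5 receptors, which turn the netrin response to repulsion, Unc5c fell in footprints, with 21.1, 22.4 and 23.2 TPM in KO and 26.2, 27.7, 26.2 and 25.3 TPM in WT (-0.25 ± 0.05, adjusted p = 0.00501).

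Unc5a passed in RNA and not in footprints. Its RNA was 76.8, 71.1 and 89.0 TPM in KO and 109, 101, 97.6 and 99.6 TPM in WT, with no overlap (-0.36 ± 0.07, edgeR adjusted p = 0.0130). Its footprints were 22.4, 23.0 and 22.1 TPM in KO and 23.3, 25.7, 24.5 and 24.0 TPM in WT, apart but by less (-0.12 ± 0.04, adjusted p = 0.0708). Leaving out KO RNA library 2 moved the adjusted p of the RNA change to 0.0572.

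Whether ribosomes per mRNA changed was asked by the TE test, the difference between the footprint and the RNA fold change in a model of all 14 libraries. This model had no term for the lysate that an RNA and a footprint library share. None of the 71 genes passed in either direction by edgeR, where 0.0139% of all genes were called higher and 0.0208% lower. At an unadjusted p under 0.05, 10 were lower (5.84% of all genes) and 3 were higher (4.99% of all genes). DESeq2 called 1 lower, Epha7, and limma none. The median TE change was -0.05, against -0.01 for all genes. Epha7 had the smallest p, with -0.29 ± 0.06 (adjusted p = 0.0796), and it passed in 3 of 17 alternatives, with adjusted p of 0.0184 to 0.432. With the shared lysate as a block in edgeR, the adjusted p of Epha7 was 0.0914. Its ratio of footprint to RNA TPM was 1.56, 1.69 and 1.80 in the KO pools and 1.97, 2.16, 2.08 and 1.98 in the WT pools. The next smallest p-values also missed the threshold, with -0.25 ± 0.06 for Epha5 (adjusted p = 0.102), -0.22 ± 0.06 for Robo2 (0.152), -0.18 ± 0.06 for Epha4 (0.245), 0.23 ± 0.09 for Unc5a (0.313) and 0.24 ± 0.09 for Efna3 (0.316). Larger differences with wider errors, such as -0.34 ± 0.13 for Ntn4 (0.398) and 0.33 ± 0.13 for Epha8 (0.492), did not pass either. Across the 70 genes tested in both assays, footprint and RNA changes had a correlation of 0.593, a description over genes that share the same lysates and are not replicates.

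**Figure D3:**
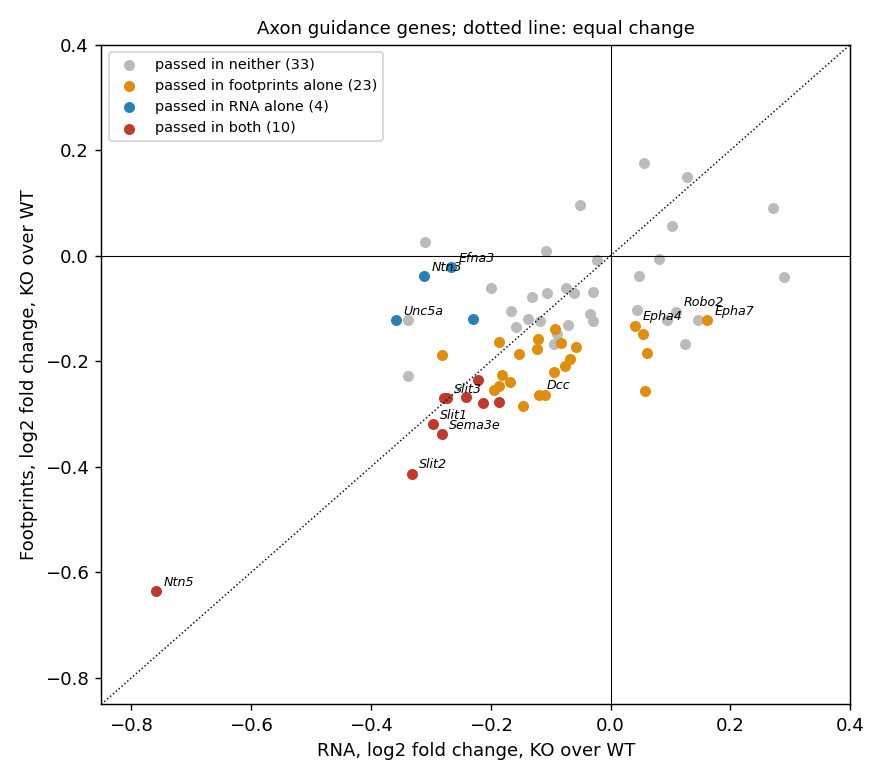
Log2 fold change of KO over WT in footprints (vertical axis) against cytoplasmic RNA (horizontal axis) for 70 guidance genes, coloured by the assay in which edgeR's test was passed; the dotted line marks equal change. The Slits, Sema3e and Ntn5 lie near the line, Epha4, Epha7 and Robo2 lie below it to the right of 0, and Efna3, Ntn3 and Unc5a lie above it.

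By the length that relates counts to TPM, guidance genes are long, and genes long by this measure in general fell more often in KO footprints. It is not the genomic span of a gene, which was not examined. The length of the guidance genes relative to the median gene was 2.03 at the median (0.414 to 4.68). Of the 71, 37 were at least 2 times as long as the median gene, against 17.0% of all genes. Among genes of that length, 20 of 37 guidance genes fell in footprints, where 18.7% of all such genes fell, and 7 of 37 fell in RNA, where 4.1% did. None of the 37 rose, where 4.18% of all genes of that length rose in footprints and 2.11% in RNA. Of the shorter guidance genes, 13 of 34 fell in footprints, where 8.68% of all shorter genes fell, and 7 of 33 in RNA, where 2.49% did. With the length trend of each library removed, 34 guidance genes were called lower in footprints, 32 of them among the 33, and 13 in RNA. In that fit 9.99% of all genes were lower in footprints and 2.92% in RNA. The median footprint change was -0.17 for the longer guidance genes and -0.12 for the shorter, against -0.04 for all genes of the longer class. Over the 71 genes the correlation of the footprint change with log2 length was -0.298, against -0.0687 over all genes.

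The ratio of footprint to RNA TPM in WT slices differed widely within the families. It had a median of 0.594 over the 71 genes, from 0.156 to 2.47, against 0.785 over all genes. Of 58 guidance genes with at least 5 TPM in both assays, 15 had a ratio above 1. The share of all genes above 1 was not counted. Each TPM is scaled to its own library, so a ratio of 1 has no absolute meaning. The highest were Sema3e (2.47 ± 0.140 SD over 4 pools), Efna5 (2.40 ± 0.594), Sema3d (2.35 ± 0.281) and Epha7 (2.05 ± 0.0890). Efna5 and Sema3d, both near 5 to 15 TPM, spanned 1.76 to 3.19 and 1.99 to 2.63, so these neighbours do not differ beyond their spread. Lowest were Ntng2 (0.156 ± 0.00970), Ephb6 (0.219 ± 0.0103), Ntn3 (0.224 ± 0.0285) and Plxnd1 (0.231 ± 0.0102). Ntng2, at 0.145 to 0.167, lay below each of the other three, whose values of 0.203 to 0.266 overlapped. All 9 plexins were at 0.231 to 0.555, while the class 3 semaphorins ran from 0.461 to 2.47 and the EphA receptors from 0.267 to 2.05.

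**Figure D4:**
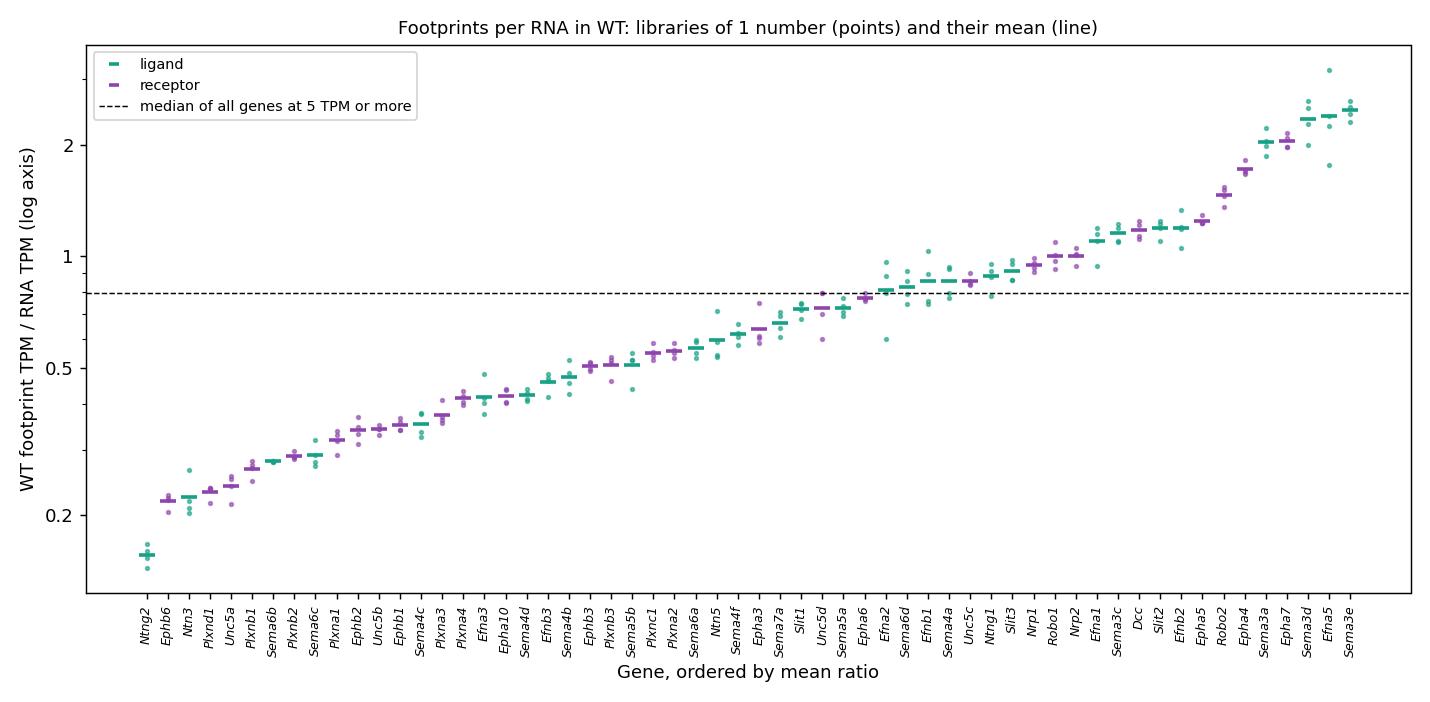
WT footprint TPM divided by RNA TPM (log axis) for the 58 guidance genes with at least 5 TPM in both assays, in order of the mean; points are the 4 pools, lines their mean, green for ligands and purple for receptors. The order runs from Ntng2 at 0.156 to Sema3e at 2.47, and the dashed line marks the median of all genes at that level, 0.794.

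The partners and effectors of these receptors moved in both directions. Of 72 genes listed as co-receptors, adhesion partners and intracellular effectors, 11 rose and 16 fell in footprints, and 2 rose and 5 fell in RNA (edgeR), with medians of 0.02 and 0.003. Of all genes, 8.15% rose and 10.4% fell in footprints, and 2.11% rose and 2.77% fell in RNA. Of the 20 whose products sit at the cell surface or are secreted, none rose and 14 fell in footprints, with a median of -0.17. Of the 52 intracellular ones, 11 rose and 2 fell, with a median of 0.06. This division was made after the values were seen and is given without a test. The smallest p-values in footprints belonged to Flrt3, a ligand of Unc5 receptors (-0.33 ± 0.04, adjusted p = 0.000567), the adhesion molecule Chl1 (-0.30 ± 0.04, adjusted p = 0.00128), Dpysl3 of the collapsin response mediator family (0.22 ± 0.03, adjusted p = 0.00173), Dscaml1 (-0.23 ± 0.04, adjusted p = 0.00235), Rgmb, a ligand of neogenin (-0.23 ± 0.04, adjusted p = 0.00263), and the axonal glycoprotein Cntn2 (-0.29 ± 0.05, adjusted p = 0.00340). Of the 5 collapsin response mediator genes, which relay semaphorin signals to the cytoskeleton, 4 rose. Among the RNA changes were Lrrc4b (-0.33 ± 0.05, adjusted p = 0.00519), Dscaml1 (-0.23 ± 0.05, adjusted p = 0.0240), Lrrc4, a partner of netrin-G2 (-0.26 ± 0.06, adjusted p = 0.0264), Cntn2 (-0.22 ± 0.06, adjusted p = 0.0340), Rnd1, a GTPase that binds plexins (0.45 ± 0.11, adjusted p = 0.0347), and Dpysl4 (0.25 ± 0.07, adjusted p = 0.0425).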

How the data were processed

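The tables deposited by the authors hold estimated counts and TPM per gene. Per the submitters' processing notes the tools were cutadapt 1.7.1, Trimmomatic 0.32, Bowtie2 2.1.0, TopHat2 2.0.9, SAMtools 0.0.19, bedtools and RSEM 1.2.11, with build mm10. The origin of the floor near 1 TPM and the strand setting are not given in the sources used here. Of 19 samples in the labels, 14 have a column, and 5 were not analysed here.

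Estimated counts were rounded and fitted over all genes in R 4.3.3 with edgeR 4.0.16 (filterByExpr minimum count 10, TMM, robust quasi-likelihood test, Benjamini-Hochberg adjustment, threshold 0.05), for RNA and footprints separately and as an assay by genotype interaction for TE. Adjusted p-values come from this fit, over all genes tested, except where another test, another setting or a left-out library is named. The SE was computed from the fold change and its F statistic. Scaling sets the typical gene near 0, so a change shared by all genes would not be seen. The scripts were tested on simulated data. Relative length is the count divided by TPM, set against the median gene, and is not the genomic span. Alternatives were DESeq2 1.42.0, limma 3.58.1 on log2(TPM + 1), other scalings and filters, a length trend, a replicate block, a lysate block for TE and each library left out. The library set as a covariate (replicates 1 and 2 against 3 and 4, sets that the labels do not name as batches) was added after the values were seen.

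Genes named one by one are those called in RNA or TE, the 12 largest footprint calls, the most abundant of each family, and the 4 highest and 4 lowest WT ratios. Of the partner list they are the 6 with the smallest p in footprints and 6 called in RNA. The ligand genes Sema3a, Sema3c, Sema4b, Sema4f, Sema5a, Sema6b, Sema6d, Efna4, Ntn1 and Ntn4 were named after their values were seen. So were the receptor genes Nrp2, Plxnb3, Epha3, Epha5, Epha6, Epha8, Ephb3, Robo1, Robo3 and Robo4. The guidance genes, the partner list and the marker lists were chosen with earlier results of these data known. All 71 symbols matched RefSeq on GRCm38.p6.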

Additional observations from a re-analysis of the deposited data

Results flagged for a closer look

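Among 58 groups of 4 WT libraries of the named guidance genes, 2 held a library far from the other three, where chance gives about 1 in 20. Plxna1 footprints in WT replicate 1 were 27.1 TPM, against 28.2 to 28.3 TPM in the others, a gap of 0.898 of the whole range. Slit3 footprints in WT replicate 4 were 40.6 TPM, against 43.4 to 43.7 TPM, a gap of 0.903 of the range. Both values lie towards the KO libraries, and both genes were called in footprints without those libraries as well.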

How the results depend on the processing

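The 33 guidance genes lower in footprints became 28 with DESeq2, 22 with a replicate block, 31 to 35 under the other settings, and 27 to 32 when 1 library was left out. Of all genes, 10.4% were lower in the reported fit, 7.39% with DESeq2 and 6.06% with the replicate block. The share was 8.05% to 15.8% under the other settings and 7.28% to 9.03% when 1 library was left out. None of the called changes of guidance genes reversed under the settings run. Of the 33 footprint calls, 21 were kept in every setting run, and 12 were lost in at least 1: Efnb3, Epha3, Epha4, Epha7, Ntn1, Plxnb3, Sema3c, Sema3d, Sema4b, Sema4f, Sema6b and Sema6d. Of the 14 RNA calls, Ntn5 was kept in every setting and the other 13 were lost in at least 1. The 14 genes lower in RNA became 4 with limma on log2(TPM + 1), 4 with the replicate block, 6 with the library set as a covariate, and 1 to 16 when 1 library was left out, and the RNA median ran from -0.12 to -0.077. Of all genes, 2.77% were lower in RNA in the reported fit. That share was 2.15% with limma, 0.944% with the replicate block and 1.52% with the library set. Genes lower in TE numbered 1 with DESeq2, 1 with a mean of at least 5 TPM, and 0 to 1 when 1 replicate was left out (1 without KO replicate 3), against none in the reported fit. The median WT ratio was 0.731 on TMM-scaled CPM and 0.625 for genes of at least 5 TPM. The 34 calls of the partner list became 17 with the replicate block and 22 with the library set as a covariate. KO and WT libraries of the same number did not deviate together (correlations of -0.334 to -0.0372 in RNA and -0.488 to 0.0778 in footprints). Each group was centred on its own 3 or 4 libraries, and a difference between sets of libraries may have been removed. This check therefore cannot decide whether the numbers pair samples. The cause of the differences between settings was not tested. At levels near 1 TPM the floor limits what fold changes can show.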
